A study of Mus musculus with 6 samples.

Results

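The keratin genes were followed in mouse neural stem and progenitor cells grown in culture, cells whose main cytoplasmic filaments are built of vimentin and nestin and not of keratins. Members were all protein-coding genes of the RefSeq table of GRCm38.p6 whose symbol is Krt and a number, which gave 53 of 21887 protein-coding genes. A pseudogene of Krt8 on chromosome 7 and Krt74, annotated as a transcribed pseudogene, were left out by the rule. All 53 lie in 2 gene clusters, with 27 on chromosome 11 from 99232761 to 100269951 (1.04 Mb) and 26 on chromosome 15 from 101348315 to 102032026 (0.684 Mb). Members were chosen by symbol, and the family itself was selected on the deposited peaks of both marks at these genes, so the counts and peak values of members are a description and carry no test.

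Keratins are the intermediate filament proteins of epithelial cells. They assemble as pairs of an acidic type I protein, encoded on chromosome 11 with the exception of Krt18, and a basic type II protein, encoded on chromosome 15. Each epithelium uses its own pairs: Krt8 and Krt18 in simple epithelia and the earliest embryonic epithelium, Krt5 and Krt14 in basal keratinocytes, Krt1 and Krt10 in the differentiating layers of the epidermis, and further sets in the inner root sheath and the hair shaft. H3K4me3 is a mark of active and poised promoters, and H3K27me3 is placed by Polycomb complexes over silent genes, in many cases at CpG-rich promoters.

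The cells were isolated from forebrains at E13.5, grown with EGF and FGF to passage 2 to 3, and held for 24 h with water or 10 mM crotonate, a short-chain fatty acid anion from which cells make crotonyl-CoA. CUT&Tag, in which an antibody guides a transposase to the marked chromatin, gave 1 library for each mark under each treatment. The 2 control libraries made with IgG are not analysed here. The number of embryos or cultures behind a library is not given in the sources used here, and genotype and strain are not either. With no replicate libraries, none of the differences can be set against a spread between samples, and p-values are left out. Depth was estimated from the peak lists as 1.16 times (H3K4me3) and 0.811 times (H3K27me3) as many fragments after crotonate as after water, over a background 1.80 times as deep. The part of depth in the number of weak peaks was checked only in part, by a matched background depth explained with the cluster results. It can remove crotonate peaks but cannot add water peaks. The label of the cells was checked against markers. Of 12 neural stem and progenitor genes, 10 carried H3K4me3 in both lists, Sox2 and Nes among them. That is 83.3%, against 54.1% (water) and 58.2% (crotonate) of all genes. H3K27me3 was at 0 of the 12, where 9.45% and 12.3% of all genes carried it, so this 0 says little. Pax6 and Msi1 had no peak at an end. Of 9 epithelial markers, 7 carried H3K27me3 in both lists (77.8%), such as the cadherin gene Cdh1 and the splicing factor gene Esrp1. Cldn4 and Trp63 had no peak of either mark at an end. H3K4me3 was at 2 of the 9 epithelial markers in water and at 3 after crotonate, and all of these carried both marks at the same end. The added one was Cdh1, through a peak of 372 bp among the weakest of its list (−log10 q of 1.63, percentile 0.818).

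The upstream sequences of 6 keratin genes show how unlike their promoters are. Of the 53 members, 36 have an entry in the RefSeq promoter table of GRCm38.p6, 34 on the minus strand and 2, Krt7 and Krt18, on the plus strand. The 250 bases before the annotated start are printed 5′ to 3′ along the gene's strand, with each CG dinucleotide and each TATAAA in capitals. Among these 36, Krt8, Krt18 and Krt7 are those with H3K27me3 at their annotated start. Krt77 and Krt10 carried marks away from it, and Krt5 stands for the unmarked majority. The starts of the 17 members without an entry, Krt19 and Krt87 among them, could not be scored.
Krt8: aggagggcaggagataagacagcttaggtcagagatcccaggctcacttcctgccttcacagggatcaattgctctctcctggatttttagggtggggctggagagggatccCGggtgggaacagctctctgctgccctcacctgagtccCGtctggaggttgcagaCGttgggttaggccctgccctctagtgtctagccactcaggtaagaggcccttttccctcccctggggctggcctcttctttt
Krt18: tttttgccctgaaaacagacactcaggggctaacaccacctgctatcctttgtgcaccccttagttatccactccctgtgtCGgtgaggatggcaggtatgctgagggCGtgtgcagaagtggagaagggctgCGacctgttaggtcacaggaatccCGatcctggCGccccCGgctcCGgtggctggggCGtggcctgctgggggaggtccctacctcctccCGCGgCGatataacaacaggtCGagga
Krt7: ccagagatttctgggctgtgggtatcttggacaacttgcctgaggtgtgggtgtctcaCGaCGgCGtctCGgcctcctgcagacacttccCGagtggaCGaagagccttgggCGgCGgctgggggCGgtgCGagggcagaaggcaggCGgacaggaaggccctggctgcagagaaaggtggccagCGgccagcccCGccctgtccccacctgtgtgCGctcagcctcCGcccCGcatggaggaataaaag
Krt77: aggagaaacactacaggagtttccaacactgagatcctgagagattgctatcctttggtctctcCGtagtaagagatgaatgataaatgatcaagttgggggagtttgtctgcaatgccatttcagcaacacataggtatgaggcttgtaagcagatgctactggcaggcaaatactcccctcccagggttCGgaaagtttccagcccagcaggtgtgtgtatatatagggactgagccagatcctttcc
Krt10: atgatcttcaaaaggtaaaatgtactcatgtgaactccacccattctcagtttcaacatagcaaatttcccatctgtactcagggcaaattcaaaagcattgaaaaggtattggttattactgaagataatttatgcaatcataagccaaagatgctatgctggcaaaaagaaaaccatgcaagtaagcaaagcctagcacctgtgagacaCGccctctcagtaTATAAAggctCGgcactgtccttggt
Krt5: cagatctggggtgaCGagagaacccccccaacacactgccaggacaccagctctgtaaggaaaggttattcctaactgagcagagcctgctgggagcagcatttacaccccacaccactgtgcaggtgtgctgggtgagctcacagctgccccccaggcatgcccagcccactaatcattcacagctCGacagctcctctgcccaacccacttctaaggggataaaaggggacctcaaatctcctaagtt
These windows lie at chr15:102004343-102004592 (Krt8), chr15:102027966-102028215 (Krt18), chr15:101412153-101412402 (Krt7), chr15:101869706-101869955 (Krt77), chr11:99389365-99389614 (Krt10) and chr15:101712906-101713155 (Krt5). Krt7 has 16 CG dinucleotides and Krt18 has 12, the highest counts among the 36 keratin promoters. Krt8 has 3, and Krt77, Krt10 and Krt5 have 2 each.

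Most keratin genes carried neither mark. No peak of any of the 4 lists reached within 2 kb of either annotated end at 42 of the 53 members (79.2%), against 36.9% of all protein-coding genes, and 11 (20.8%, against 63.1%) carried at least 1. In water 2 members carried H3K4me3 (3.77%, against 54.1% of all genes) and 5 carried H3K27me3 (9.43%, against 9.45%). After crotonate 3 carried H3K4me3 (5.66%, against 58.2%) and 10 carried H3K27me3 (18.9%, against 12.3%). A gene gained a mark when it had a peak at an end after crotonate only: 5 keratin genes gained H3K27me3 (9.43%, against 3.19% of all genes) and 1 gained H3K4me3 (1.89%, against 4.18%). With lists of equal length (the strongest peaks of the longer list only), 3 members gained H3K27me3 (5.66%, against 1.42% of all genes). With annotated starts only, 2 of 36 did. No gained share of all promoters is given for that setting, so this count says nothing particular to keratins. Among members without the mark in water, 5 of 48 gained H3K27me3 (10.4%, against 3.52% of such genes) and 1 of 51 gained H3K4me3 (1.96%, against 9.1%). None of the 53 lost either mark, where 0.384% of all genes lost H3K27me3 and 0.0503% lost H3K4me3. Only the 5 members with H3K27me3 and the 2 with H3K4me3 in water could lose it. Over all genes, 84 of 2069 marked in water lost H3K27me3 and 11 of 11831 lost H3K4me3. With so few members able to lose a mark, 0 losses says little. Neighbours within a cluster share domains and are not independent, so these shares are set side by side without a test. Among peaks counted at an end, those nearest the 2 kb limit lay 1996 bp (crotonate) and 1887 bp (water) from an end of Krt1, the second being the 1 peak through which Krt1 was counted in water. Just beyond the limit lay H3K27me3 peaks inside Krt77, at 2014 bp (water) and 2114 bp (crotonate) from an end, 1 upstream of Krt18 at 2177 bp (crotonate) and 1 inside Krt8 at 2292 bp (water), all at genes counted through other peaks in the list concerned. Krt80, whose peak after crotonate lay 3446 bp from an end inside the gene, was the nearest gene left uncounted.

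**Figure D1:**
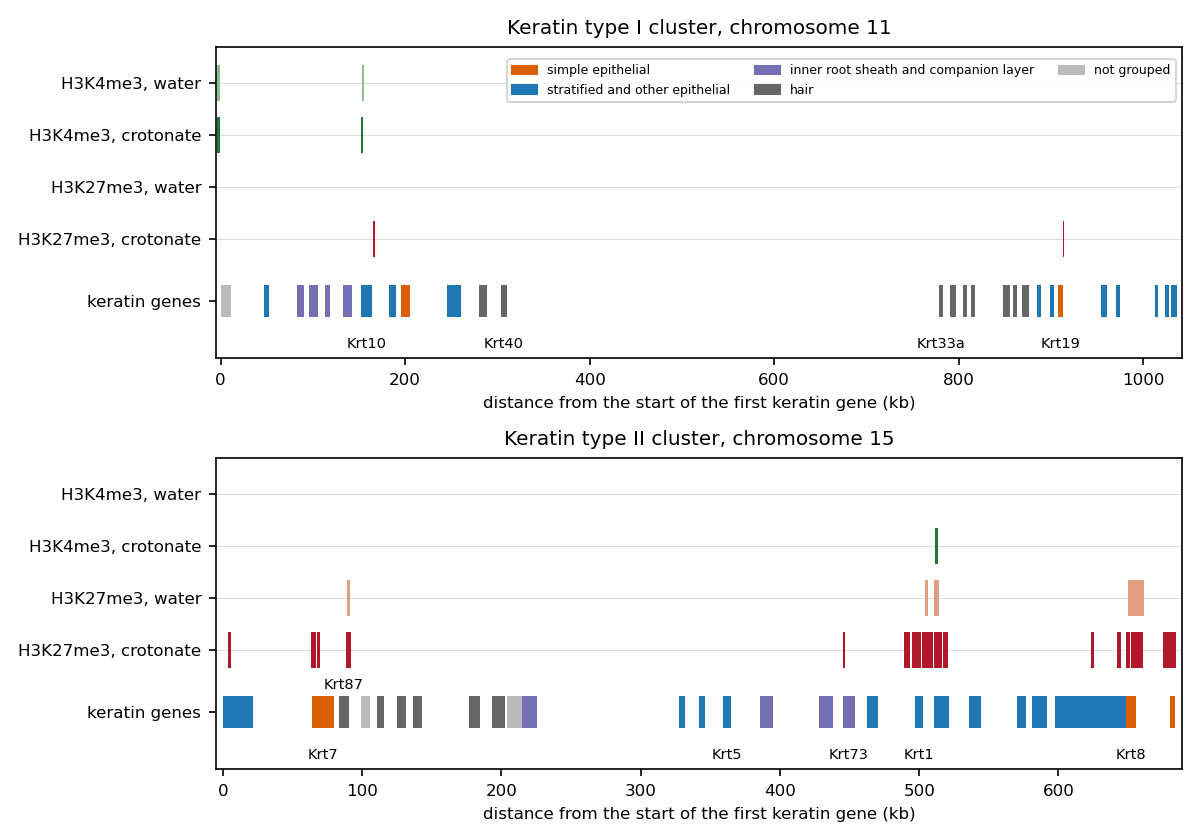
Peaks of the 4 lists over the type I cluster (top) and the type II cluster (bottom), against distance in kb from the first keratin gene. Coloured boxes are peaks, drawn at least 2 kb wide so that they can be seen, and the lowest row gives the keratin genes by role. The type I cluster holds almost no peak, and H3K27me3 peaks gather at Krt7 and Krt87, around Krt1 and at Krt8 in the type II cluster.

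The members with H3K27me3 were then counted by role. Over all genes, 9.45% carried it in water and 12.3% after crotonate. Of the 5 simple epithelial keratins, 1 carried H3K27me3 in water (Krt8, 20%) and 4 after crotonate (Krt7, Krt8, Krt18 and Krt19, 80%). Krt20, an intestinal keratin, had no peak. Of the 22 keratins of stratified and other epithelia, 3 carried it in water (13.6%) and 4 after crotonate (18.2%), shares near those of the whole family (9.43% and 18.9%), and 1 of them, Krt78, was counted through peaks at Krt8. The basal keratins Krt5, Krt14 and Krt15, the wound keratins Krt6a, Krt6b, Krt16 and Krt17, and the keratins of mouth and oesophagus, Krt4 and Krt13, had no peak of either mark. Among the 8 keratins of the inner root sheath and companion layer 1 was marked, after crotonate only (Krt73, 12.5%). Among the 15 hair keratins 1 was marked in both lists (Krt87, 6.67%). Both shares are near or below those of all genes. The roles are textbook groupings written down after the peaks had been seen.

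Krt8, the type II keratin of simple epithelia, carried the strongest H3K27me3 peak of the family. The domain ran over the annotated start at 102004342. After water it spanned chr15:102000148-102007304, 7.16 kb with an authors' fold enrichment of 18.9 over local background and −log10 q of 35.0, at percentile 89.3 of that list. After crotonate it spanned chr15:102000094-102009354, 9.26 kb with a fold enrichment of 21.4 and −log10 q of 47.5. The longer peak overlapped 2 water peaks, the domain and one of 833 bp beside it. Fragments over the summit came to 96 (exact Poisson 95% interval 77.8 to 117, counting error only) and 62 (47.5 to 79.5), in libraries of unequal depth. The Krt8 span was covered over 64.9% of its length in water and 87.1% after crotonate. Toward the 3′ end, short water peaks of 378 and 382 bp of the water list were both overlapped by 1 crotonate peak of 2395 bp, with a fold enrichment of 10.2. H3K4me3 was in neither list at Krt8, the nearest peak being 69065 bp away in water.

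Krt18, the type I partner of Krt8 that lies beside it on chromosome 15 from 102028216 to 102032026, had no H3K27me3 peak in water within 19718 bp. After crotonate 4 peaks lay at its ends. The strongest, at chr15:102029577-102030265, measured 689 bp with a fold enrichment of 6.23, −log10 q of 6.78 and 18 summit fragments (10.7 to 28.4). Another began 26 bp downstream of the annotated start and was among the weakest of the list, with −log10 q of 1.60 at percentile 6.94. The other 2 measured 583 and 1300 bp, and together these peaks covered 64.6% of the Krt18 span, against 0% in water. One more peak, of 2.33 kb, lay further upstream. Over the 35.3 kb from Krt8 to Krt18, H3K27me3 peaks covered 24.8% in water and 48.2% after crotonate. Covered length depends on how far each call extends, and the part of depth in the width of single peaks was not tested.

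Krt7, a keratin of ducts and glands, gained H3K27me3 over its start at 101412403. The peak ran from 101411593 to 101415176 over 3.58 kb, at a fold enrichment of 4.70 and −log10 q of 6.17, on 28 summit fragments (18.6 to 40.5). At a fold enrichment of at least 5, Krt7 did not gain the mark. In water the nearest H3K27me3 peak lay 9546 bp away, at the hair keratin gene Krt87. Krt19, the small type I keratin of simple epithelia and progenitor cells of several epithelia, gained a peak of 596 bp at chr11:100145539-100146134, over its annotated upper end at 100145926. It had a fold enrichment of 5.58 and −log10 q of 5.82, on 18 summit fragments (10.7 to 28.4).

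Krt1 and Krt77 are neighbouring type II genes of the epidermis, and Krt77 is expressed in embryonic skin and sweat glands. In water this stretch held 3 H3K27me3 peaks, of 742, 1315 and 1285 bp, with fold enrichments of 4.51, 4.45 and 5.08. After crotonate 12 peaks lay between the end of Krt2 and the end of Krt77, and they covered 19.0 kb of 50.8 kb (37.5%), against 3.34 kb (6.59%) in water. The longest ran between the genes at chr15:101850076-101858033, 7.96 kb where the water peak had 742 bp, with a fold enrichment of 7.56 and −log10 q of 14.5. The next spanned chr15:101858596-101862242 and overlapped both of the water peaks at Krt77. Of the Krt1 span, 49.4% was covered after crotonate and 0% in water. The 5 other peaks counted at Krt1 measured 444 to 915 bp, and 3 more peaks inside Krt77 measured 365, 495 and 1897 bp.

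**Figure D2:**
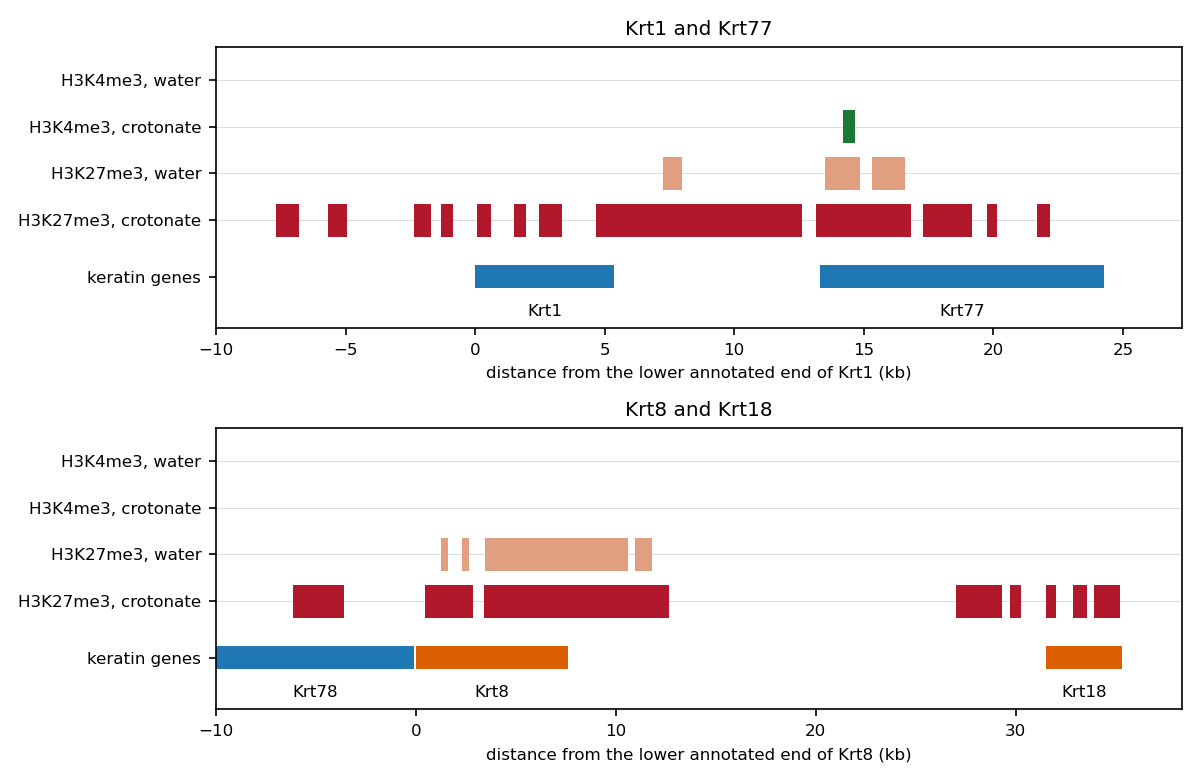
Peaks to scale around Krt1 and Krt77 (top) and Krt8 and Krt18 (bottom), against distance in kb from the lower annotated end of Krt1 or Krt8. Rows are the 4 peak lists and the genes; a box is a peak. The domain at Krt8 is in both lists, that between Krt1 and Krt77 is 7.96 kb after crotonate over a water peak of 742 bp, and the boxes at Krt18 are in the crotonate list only.

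Krt77 was the 1 member that gained H3K4me3, and the 1 that carried both marks at the same end after crotonate (1.89%, against 6.81% of all genes; 0 members and 3.85% of genes in water). The H3K4me3 peak measured 460 bp at chr15:101859642-101860101, with a fold enrichment of 3.64 and −log10 q of 1.96 on 16 summit fragments (9.15 to 26.0), at percentile 1.47 of its list. It lay 9.60 kb downstream of the annotated start, near the other end of the gene and inside the H3K27me3 peak. With lists of equal length, at a fold enrichment of at least 5, at −log10 q of at least 5 or at a matched background depth, 0 members gained H3K4me3.

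Krt87, a hair keratin, carried H3K27me3 in both lists, over 2.01 kb with −log10 q of 9.99 in water and over 3.68 kb with −log10 q of 27.6 after crotonate. Summit fragments numbered 52 (38.8 to 68.2) and 54 (40.6 to 70.5). It was the strongest peak of the family after that of Krt8 in both lists. Krt73, an inner root sheath keratin, gained a peak of 359 bp with −log10 q of 2.30 on 10 fragments (4.80 to 18.4), 8.75 kb downstream of its annotated start. That peak was lost with lists of equal length and at a matched background depth. Krt80, a keratin of many epithelia, had 1 peak inside the gene after crotonate, of 801 bp with −log10 q of 3.21. Krt78 was counted through the peaks at the 3′ end of Krt8: its annotated span reaches Krt8, while the start in the promoter table lies 43.7 kb from the water peak. Inside Krt78 the crotonate list had 2 more peaks, of 551 bp and 2.55 kb.

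**Figure D3:**
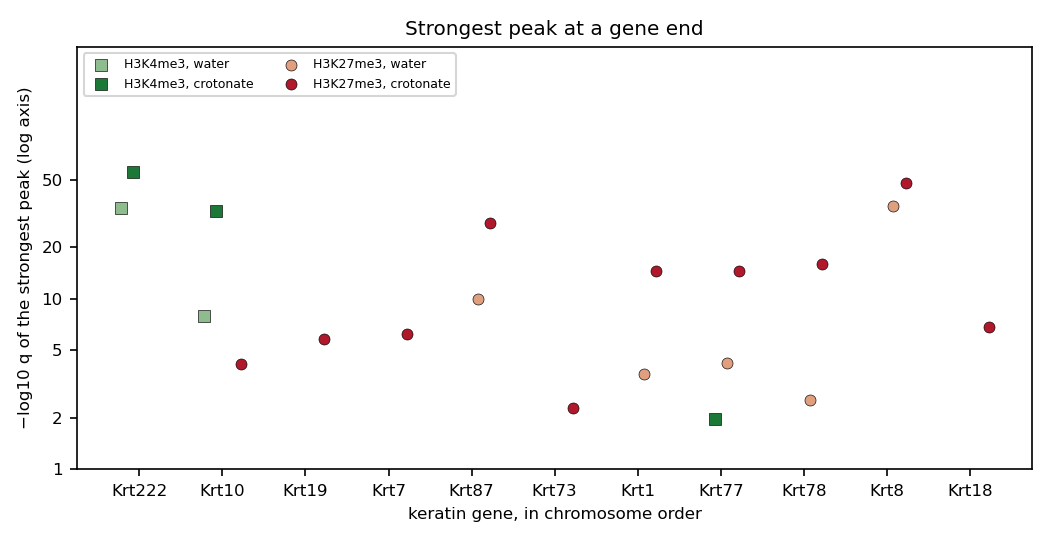
Strongest peak at an end of each of the 11 marked keratin genes, as −log10 q on a log axis, by mark and treatment. Squares are H3K4me3 and circles H3K27me3; a missing symbol means that no peak was called. H3K27me3 values run from 2.30 at Krt73 to 47.5 at Krt8 after crotonate, and values of different lists are not on the same depth.

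The type I cluster held 0 H3K27me3 peaks in water and 2 after crotonate, which covered 0.145% of its length. Both were at marked members, Krt19 and Krt10. A stretch of 746 kb, from 99399264 to 100145538, held no peak of any list, and in it lie 14 keratin genes from Krt12 to Krt15 and 23 keratin-associated protein genes. In the type II cluster the longest such stretch was 353 kb, with 13 keratin genes from Krt88 to Krt72. H3K27me3 covered 2.06% of the type II cluster in water and 7.04% after crotonate. Over all protein-coding gene spans it covered 1.001% and 1.501%. The ratio of covered length after crotonate to that after water was 3.42 for the type II cluster and 1.499 for all gene spans. These are unlike measures, as the cluster includes the DNA between genes. Over the keratin gene spans alone, both clusters together, H3K27me3 covered 9.01 kb (2.01%) in water and 27.99 kb (6.25%) after crotonate.

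**Figure D4:**
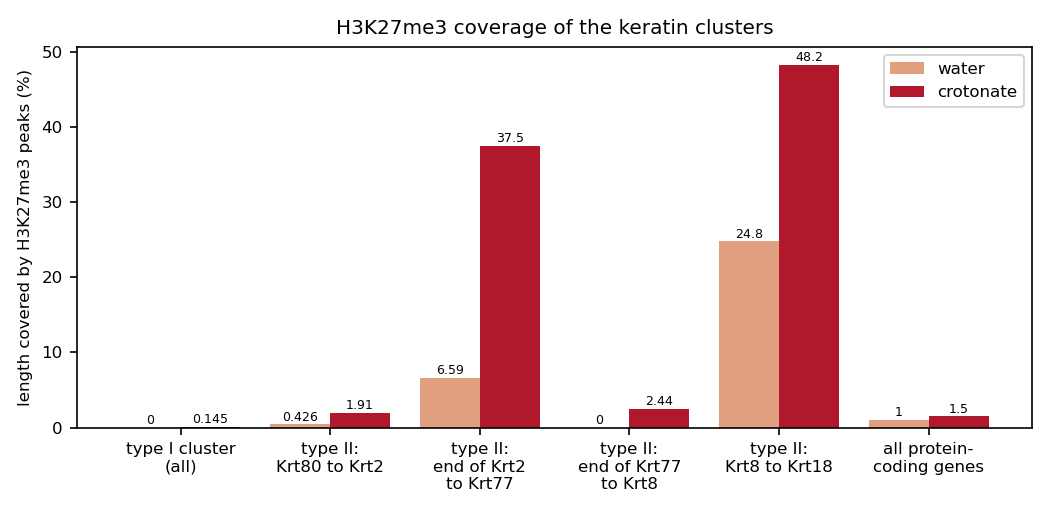
Share of length covered by H3K27me3 peaks, in percent, for the type I cluster, 4 consecutive blocks of the type II cluster and all protein-coding gene spans, after water and after crotonate. Block borders were set after the peaks had been seen. The 2 blocks holding Krt1 with Krt77 and Krt8 with Krt18 reach 37.5% and 48.2% after crotonate, and all gene spans 1.501%. Unlike the gene spans, the cluster and its blocks include the DNA between genes.

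All 8 H3K27me3 peaks of the type II cluster in water overlapped a crotonate peak, as did 7009 of 7643 in the whole water list. This 8 of 8 therefore says little. Of the 26 peaks after crotonate, 5 had a counterpart in water and 21 (80.8%) did not, where 63.2% of the whole crotonate list had none. With a reciprocal overlap of at least 50%, 2 had a counterpart and 24 (92.3%) did not, against 78.9% of the whole list. The median length of those 21 was 641 bp (359 to 3584), with a median −log10 q of 3.77 (1.48 to 7.90). The 5 with a counterpart measured 2395 to 9261 bp, with −log10 q from 13.7 to 47.5, and held 26.9 kb of the covered length against 21.2 kb. A check added once the data had been seen used a matched background depth. Pileup and background of each crotonate peak were scaled to the water background. Peaks were kept only if they still passed the water list's threshold. By this check 21 of the 26 peaks were kept, 16 of them in the crotonate list only. The share of the whole crotonate list kept by it is not given, so these counts show nothing particular to keratin peaks.

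H3K4me3 at keratin genes came from few places. At Krt222, which encodes a truncated keratin-like protein, the peak at chr11:99229122-99231661 (2.54 kb in water, 2.46 kb after crotonate) overlapped the neighbouring gene Smarce1, a subunit of the SWI/SNF remodelling complex, and ended 1100 bp short of Krt222. Krt10, the type I keratin of differentiating epidermis, had a peak of its own in both lists. It measured 591 bp in water, with a fold enrichment of 5.96 and −log10 q of 7.94, and 1.54 kb after crotonate, with 17.1 and 32.7. Summit fragments numbered 65 (50.2 to 82.8) and 71 (55.5 to 89.6). The peak lay 2.51 and 2.32 kb downstream of the start in the promoter table, toward the 3′ end, and so was no promoter peak by that annotation. The H3K27me3 peak gained by Krt10 lay 8.99 kb upstream of that start, 903 bp beyond the upper end of the annotated span. Within 2 kb of the annotated starts alone, 0 of the 36 keratin promoters carried H3K4me3 in either list, against 54.3% and 57.8% of 17492 protein-coding promoters.

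Keratin promoters were poor in CpG. The 36 had a median of 3.5 CG dinucleotides in 250 upstream bases, with a range of 1 to 16, against a median of 10 over all 17492. At least 10 were found at 2 keratin promoters (5.56%) and at 50.4% of all. H3K27me3 lay within 2 kb of the start at 1 keratin promoter in water (Krt8, 2.78%, against 7.53% of all). After crotonate it lay at 3 (Krt7, Krt8 and Krt18, 8.33%, against 9.70% of all). Both CpG-rich promoters, Krt7 and Krt18, carried it after crotonate and not in water. Among all promoters with at least 10 CG and no H3K4me3 at the start in either list, 264 of 680 (38.8%) carried H3K27me3 after crotonate and 216 (31.8%) in water. These shares count promoters that carried the mark. The share that gained it is not given, so the gains at Krt7 and Krt18 cannot be set against it. Under 10 CG, 1 of 34 keratin promoters carried it in each list, against 4.95% and 7.68% of all such promoters. TATAAA, searched in the last 45 bases before the start, was present on the gene's strand at 14 of 36 keratin promoters (38.9%), against 3.32% of all, and on the other strand (TTTATA) at 0 against 0.932%. It was found at 6 of the 8 inner root sheath and companion promoters and at 1 of 4 simple epithelial ones (Krt20), and at none of Krt7, Krt8 and Krt18.

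**Figure D5:**
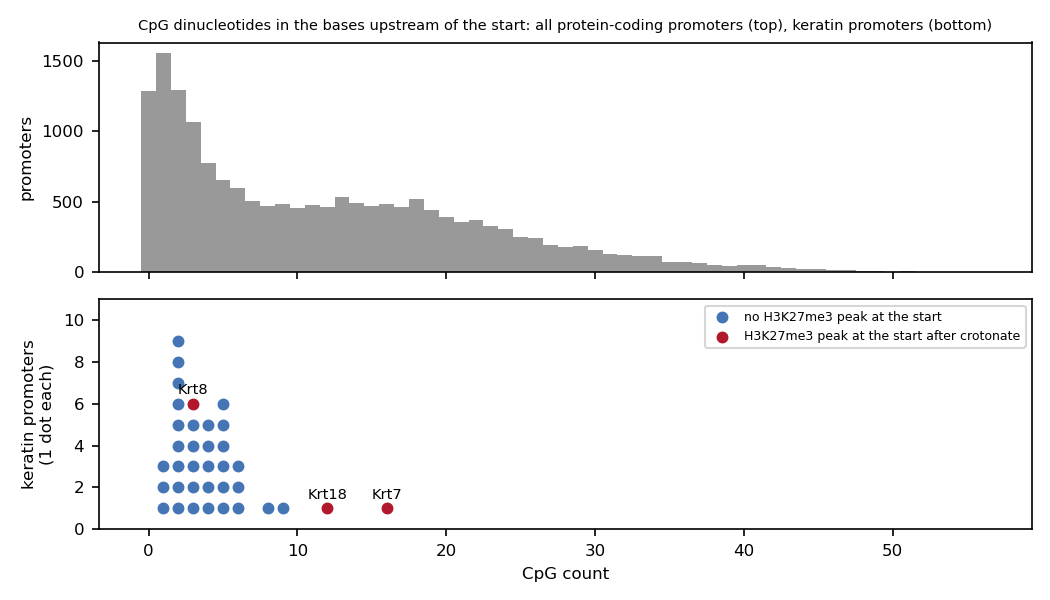
Number of CG dinucleotides in 250 bases upstream of the annotated start, for all protein-coding promoters as a histogram (top) and for the 36 keratin promoters as 1 dot each (bottom). Red dots mark an H3K27me3 peak within 2 kb of the start after crotonate. Keratin promoters lie at 1 to 9 apart from Krt18 at 12 and Krt7 at 16, both red; Krt8, also red, has 3.

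Other clustered families were in different states. None of the 56 keratin-associated protein genes, which encode the matrix of hair, carried H3K4me3, and 2 carried H3K27me3 in both lists (Krtap5-1 and Krtap5-4, which lie outside the keratin clusters). Of 1110 olfactory receptor genes, 1094 (98.6%) had no peak at an end in any list. The 39 Hox genes all carried H3K27me3 in both lists. Over all genes, 36.9% had no peak at an end in any list. H3K4me3 was at 54.1% of all genes in water and 58.2% after crotonate, and H3K27me3 at 9.45% and 12.3%. Keratin genes lay between these families, with 79.2% unmarked and H3K27me3 at 9.43% and 18.9%. Their water share of H3K27me3 was near that of all genes, so this place between the families says little.

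Genes that work with keratins or drive epithelial fate come next. Of 24 epithelial regulators and surface genes, 15 carried H3K27me3 in water (62.5%, against 9.45% of all genes) and 17 after crotonate (70.8%, against 12.3%). H3K4me3 was at 6 (25%, against 54.1%) and 10 (41.7%, against 58.2%), and 4 gained it (16.7%, against 4.18%). H3K4me3 was gained by Ovol2, Ovol1, Grhl3 and Cdh1 of this group. The strongest new peak, at the epithelial repressor gene Ovol2, measured 1.09 kb with −log10 q of 10.4. The weakest, at Cdh1, had −log10 q of 1.63. Grhl3 and Ehf gained H3K27me3. Of 22 desmosome and hemidesmosome genes, 8 carried H3K27me3 in water (36.4%) and 11 after crotonate (50%), shares above those of all genes, and 5 (22.7%) and 9 (40.9%) carried H3K4me3, shares below those of all genes; Perp, Itgb4, Dsg2 and Evpl gained H3K4me3, and Perp, Evpl and Lamb3 gained H3K27me3. Dsp, which encodes desmoplakin, the anchor of keratin filaments at desmosomes, lay under an H3K27me3 peak of 12.2 kb (water) or 14.6 kb (crotonate), with fold enrichments of 59.3 and 84.7. Both marks were new at Perp, a desmosome gene under p63 control, with 893 bp of H3K4me3 and 1.24 kb of H3K27me3.

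Of 17 cornified envelope genes, which are late products of keratinocytes, 2 carried H3K4me3 in water (11.8%) and 3 after crotonate (17.6%). H3K27me3 was at 3 of the 17 in each (17.6%). Over all genes H3K4me3 was at 54.1% in water and 58.2% after crotonate, and H3K27me3 at 9.45% and 12.3%. With 17 genes, the H3K27me3 share is not far from that of all genes. Tchh, encoding the trichohyalin that binds keratins of the inner root sheath, gained H3K4me3 at an end through a peak also present in the water list. Of 12 hair follicle regulators, 8 carried H3K27me3 in both lists (66.7%), among them the hair keratin activator Hoxc13, whose peak over the Hoxc genes spanned 170.4 kb (water) or 171.7 kb (crotonate). Msx2 gained H3K4me3. Among 15 other intermediate filament genes, 10 carried H3K4me3 in water (66.7%, near the 54.1% of all genes). Vim and Nes, the filament genes of neural progenitors, were among them. H3K27me3 was at 5 of the 15 after each treatment (33.3%). Nefh, a neurofilament gene already under H3K27me3 (11.6 kb after water), was the 1 gene of that list that gained H3K4me3, with −log10 q of 2.08. No member of these 5 lists lost either mark. Over all genes 0.384% lost H3K27me3 and 0.0503% lost H3K4me3, so this says little.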

How the data were processed

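CUT&Tag libraries of H3K4me3 and H3K27me3 from cells held with water or crotonate gave 4 peak lists, and the IgG libraries (2) stay out. Bowtie2 2.4.1, SAMtools 1.10, Picard 2.22.0, MACS2 2.2.7.1 and the build GRCm38 were used, per the submitters' processing notes. Their settings, duplicate removal and the background library: not given in the sources used here. Peaks were called per library by the authors. Pileup is a deposited signal scaled by 1 factor per library, per the file headers. Significance is deposited as −log10 of p and q, per the file headers. Fold enrichment is the authors' ratio of summit signal to local background, per the file headers, read here as having 1 added to both. Values of a list describe and rank its own peaks.

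Marked genes had a peak sharing at least 1 bp with the 2 kb either side of an annotated end of its RefSeq span, which has no exons. The promoter table gave strand and start for 36 members. Pileups were whole multiples of 1 step per list (100% within 0.006); pileup over step gave summit fragments, and steps with the lowest background gave depth estimates, which take the shortest peak as the fragment length and assume that libraries were scaled to their background. The matched background depth scaled each crotonate peak's pileup and background to the water background and kept peaks passing the lowest −log10 p of the water list. Overlaps were tested on simulated data and checked with bedtools 2.31.1. Code used Python 3.11.15, numpy 2.4.6, pandas 2.3.3, scipy 1.17.1 and matplotlib 3.10.9.

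Members, lists and alternatives were chosen with earlier results of these data known. The text names every keratin gene with a peak, of each other list at most 4 gains and 4 losses by −log10 q, Sox2, Nes and neighbours whose peak reaches a member. Dsp, Esrp1, Hoxc13, Vim and the unmarked keratins were named after their values were seen.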

Additional observations from a re-analysis of the deposited data

How the results depend on the processing

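No paired analysis was possible because each mark and treatment has 1 library. Counts of members lost stayed at 0 for both marks under all 9 alternatives run for them. This says little, as at most 5 members (H3K27me3) and 2 (H3K4me3) carried a mark in water that could be lost. Using annotated starts only, which 36 members have, H3K27me3 was at 1 member in water and 3 after crotonate with 2 gains, and H3K4me3 at 0 and 0 with 0 gains and 0 members with both marks. With a 1 kb window, 3 members carried H3K27me3 and 0 carried H3K4me3 in water, and 2 gained H3K4me3 (Krt77, and Krt10, whose water peak lies 1007 bp from an end). With the gene span and 2 kb, 2 members carried both marks. With lists of equal length, 3 gained H3K27me3, and 0 gained H3K4me3 or carried both marks. At a fold enrichment of at least 5 or −log10 q of at least 5, 2 members carried H3K27me3 in water, and 0 gained H3K4me3 or carried both marks; 0 did at a matched background depth either.

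H3K27me3 coverage of the type II cluster after crotonate was 5.80% with lists of equal length, 5.06% at the fold threshold, 5.45% at the −log10 q threshold and 6.69% at a matched background depth, and in water 1.65% and 1.46% at those thresholds. H3K4me3 coverage there after crotonate was 0 under these 4 alternatives. H3K27me3 coverage of the type I cluster after crotonate was 0.0575% with lists of equal length and at the −log10 q threshold. Peaks shared between treatments numbered 9, and 2 with a reciprocal overlap of at least 50%; the cause was not tested. Krt19, Krt7 and Krt18 gained H3K27me3 with lists of equal length. These and Krt10 gained it at a matched background depth, for which no share of all genes is given here. At a fold enrichment of at least 5, 6 members gained it, of which 3 did so in the main setting (Krt10, Krt19 and Krt18). At −log10 q of at least 5, 6 gained it, of which 3 did so in the main setting (Krt19, Krt7 and Krt18). Krt1, Krt77 and Krt78 were added in both, as their water peaks fell below the threshold. The 21 crotonate-only peaks of the type II cluster rest on 9 to 28 summit fragments, and 16 of them were kept at a matched background depth. That check can only remove crotonate peaks and cannot add peaks that the water list missed. The part of depth in these peaks was otherwise not tested.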

Other observations

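Genes on either side of the clusters carried H3K4me3 in both lists. On chromosome 15 these were Atg101, an autophagy gene (1.66 kb in water and 2.23 kb after crotonate), and Eif4b, a translation initiation factor gene (1.71 and 2.43 kb). On chromosome 11 they were Smarce1 and Eif1, another initiation factor gene (1.40 and 2.43 kb). Separate H3K27me3 peaks also lay beyond the last keratin gene. In the 39.7 kb between Krt18 and the region of Eif4b the water list had 1 peak, of 1.69 kb. It lay at chr15:102066641-102068334, toward Eif4b and far from the end of Krt18 at 102032026. The crotonate list had 5 peaks there, apart from each other, which covered 6.83 kb. The peak in both lists lay at chr15:102065642-102068630 after crotonate, with a fold enrichment of 9.96. The Krt8 domain overlapped the annotated long non-coding RNA gene Gm36026 on its upstream side in both lists, and the Krt7 peak overlapped Gm671.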
